A study of Mus musculus with 4 samples.

Results

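Genes that distinguish the cochlea from the vestibular system in hair cells (HCs) and in the surrounding epithelium alike are described here, from the 4 RNA-seq libraries of sorted newborn mouse inner ear cells. For each gene the smaller signal of one organ was divided by the larger signal of the other. This ratio is called the shared organ fold here, and genes at or above 3 were taken as members. Of 12814 genes, 188 passed (1.47%). Of these, 89 were higher in the cochlea (0.695% of the genes) and 99 were higher in the vestibular system (0.773%). Because this rule used all 4 libraries, the folds below describe the chosen genes and are no test of them, and by construction the libraries of the organs never overlap for a member.

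Cells came from inner ears of newborn *Atoh1/nGFP* mice with a C57BL/6 background, in which a nuclear green fluorescent protein driven by *Atoh1* control elements marks HCs. Cochlear HCs and vestibular HCs were sorted as cells carrying the fluorescent protein and the epithelial surface protein CD326. Cochlear and vestibular epithelial non-sensory cells (ENSCs), which include supporting cells, were sorted as cells with CD326 and without the fluorescent protein. All 4 populations carried the transgene, none was treated, several animals were pooled for each preparation, and each population had 1 deposited column of values, called a library here, so no value has a replicate error and no p-value is given. HCs and ENSCs of an organ came from the same dissected tissue, so differences between the organs and between the tissue preparations cannot be told apart.

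The cochlea detects sound and the vestibular system detects gravity and head movement. Both arise from the otic vesicle, in which regional transcription factors separate the ventral part, which forms the cochlea, from the dorsal part, which forms most of the vestibular system. HCs and supporting cells of a sensory patch descend from common progenitors.

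Signals are read counts per gene that were quantile-normalized across the 4 libraries, with a floor of 20. They were not divided by gene length, so signals are compared between libraries and not between genes. In the lowest part of both HC libraries and of the cochlear ENSC library the order of genes carries no information of its own. This tied range ended at 24.25 in cochlear HCs, 22.75 in cochlear ENSCs and 30.5 in vestibular HCs. In vestibular ENSCs none was found above the floor of 20. Signals in such a range were also raised to its top. Where a raised signal was then the larger one of the lower organ, the fold is given as a lower bound ("at least"), computed with the raised signals. This applied to 43 of the 89 cochlear and 44 of the 99 vestibular genes, and with such signals raised 70 and 92 of them were still at least 3-fold higher. In sorted populations measured in bulk, fewer cells of a type and less RNA per cell cannot be told apart. HC marker genes followed the sorting labels. The 10 HC markers summed to 37419.75 in cochlear and 32616.25 in vestibular HCs, and to 1879.5 and 1467.25 in the ENSCs of these organs. The 10 supporting cell markers separated less, with sums of 16168.25 in cochlear HCs and 98992.5 in cochlear ENSCs. In vestibular HCs and ENSCs these sums were 13851.25 and 23518.5. Supporting cell RNA in an HC library and expression by HCs cannot be told apart. *Epcam*, which encodes CD326, had signals of 1016.75 and 1139.25 in cochlear and vestibular HCs and of 3376.25 and 7511 in the ENSCs.

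The rule asks for the difference in both populations, so it cannot give more genes than either population alone. In HCs alone, 540 genes (4.21%) exceeded their vestibular signal 3-fold or more in the cochlear library, and 652 (5.09%) differed as much in the vestibular direction. In ENSCs alone these numbers were 999 (7.8%) and 1018 (7.94%). Both matched ratios, HC over HC and ENSC over ENSC, passed 3-fold for 146 genes in the cochlear direction, which were 27.0% of the cochlear calls in HCs and 14.6% of those in ENSCs. In the vestibular direction 157 genes did so, or 24.1% and 15.4%. The rule used here is stricter, since it also compares HCs of one organ with ENSCs of the other. Applied to the populations in place of the organs, it gave 541 genes higher in HCs of both organs (4.22%) and 422 higher in ENSCs of both organs (3.29%), compared with 188 for the organs. Across all genes the log2 ratios of cochlear to vestibular signal in HCs and in ENSCs, which share no library, gave Pearson's r = 0.228 and Spearman's rho = 0.174. Genes are not independent replicates, and these coefficients are given as a description.

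**Figure D1:**
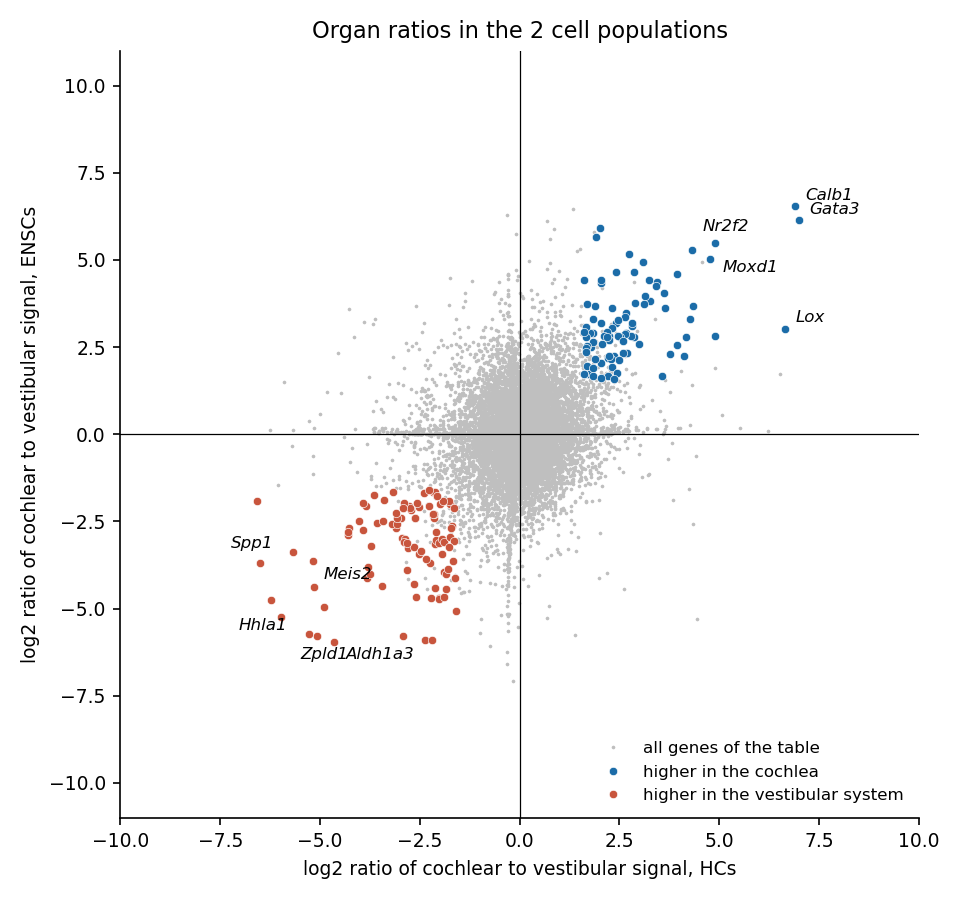
Log2 ratio of cochlear to vestibular signal in HCs (x axis) and in ENSCs (y axis), 1 point per gene, with all 12814 genes in grey. The 89 genes higher in the cochlea (blue) lie in the upper right and the 99 genes higher in the vestibular system (red) in the lower left, with *Gata3* and *Calb1* farthest out among the cochlear genes.

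The gene with the largest shared organ fold was *Gata3* (ENSMUSG00000015619, chr2:9778705-9811661 in mm9), a zinc finger transcription factor needed for inner ear development. Its signal was 3920.5 in cochlear HCs, 5323.5 in cochlear ENSCs, 30.5 in vestibular HCs and 75.5 in vestibular ENSCs. Both cochlear libraries were thus high and both vestibular libraries low, and the fold was 51.9. The orphan nuclear receptors *Nr2f2* and *Nr2f1* (COUP-TFII and COUP-TFI) were also higher in both cochlear populations. *Nr2f2* (chr7:77496832-77511621) reached 1961.5 and 3978.5 in cochlear HCs and ENSCs, compared with 66 and 89.5 in the vestibular populations, a 21.9-fold difference. *Nr2f1* (chr13:78328234-78339018) was abundant in both cochlear populations, with 12911.5 in HCs and 13361.5 in ENSCs, and remained well above the floor in the vestibular ones, with 1499.25 and 999.5 (8.61-fold). *Irx3*, an Iroquois homeobox gene, had low signals throughout, 98 and 197.25 in cochlear HCs and ENSCs and 27.25 and 20 in the vestibular libraries (at least 3.21-fold), and fell below the threshold with a floor of 50 (1.96). Further transcriptional regulators outside the otic factor list were *Lmo3*, a LIM-only cofactor, with 3084 and 1629.5 in cochlear HCs and ENSCs and 154.5 and 42 in the vestibular ones (10.5-fold), and *Rorb*, a retinoid-related orphan receptor, with 600 and 254.5 against 29.75 and 20 (at least 8.34-fold).

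Among the 15 leading cochlear genes were also *Calb1*, *Gjb2* and *Ano1*. *Calb1* (chr4:15808411-15835211), which encodes the calcium buffer calbindin, had a signal of 15030.5 in cochlear HCs and 4963 in cochlear ENSCs, and of 126 and 53 in vestibular HCs and ENSCs. Even the lower of the cochlear signals was 39.4 times the higher vestibular one, although cochlear HCs had 3.03 times the signal of cochlear ENSCs. *Gjb2* (chr14:57717437-57723539), which encodes the gap junction protein connexin 26 and is a frequent site of deafness mutations, was nearly equal in both cochlear populations, with 4084.25 in HCs and 4725.5 in ENSCs. In vestibular HCs and ENSCs it had 329.25 and 382.25 (10.7-fold). Whether the *Gjb2* signal in cochlear HCs came from HCs or from supporting cells in that library was not tested. *Ano1*, a calcium-activated chloride channel, had 904.75 and 1015.5 in the cochlear libraries and 101.75 and 65.25 in the vestibular ones (8.89-fold).

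Cochlear members that encode ligands, receptors or matrix proteins are given next. *Lgr5* is a receptor for R-spondins in Wnt signalling that marks supporting cells in the newborn cochlea. It had 897.75 and 748.5 in cochlear HCs and ENSCs, but 123.25 and 30 in vestibular HCs and ENSCs (6.07-fold). Whether its signal in cochlear HCs came from HCs or from supporting cells in that library was not tested. *Jag1*, a Notch ligand, was high in all 4 libraries, with 7815 and 5297.5 in cochlear HCs and ENSCs against 1712.5 and 761 (3.09-fold). The receptor gene *Fgfr3* had low signals of 154.25 and 137.25 in cochlear HCs and ENSCs and was near the floor in the vestibular libraries, at 25.75 and 21.5 (at least 4.50-fold). Its fold was 2.745 with a floor of 50. *S1pr1*, a sphingosine-1-phosphate receptor, had 255.5 and 611.25 against 29.75 and 20 (at least 8.38-fold). *Angpt1*, the ligand of the receptor Tie2, had 828.75 and 1077.75 in the cochlear libraries and 42.75 and 108.25 in the vestibular ones (7.66-fold, or 4.23 after correction for length and GC content). *Lox*, a lysyl oxidase that cross-links collagen and elastin, was uneven within the cochlea, with 3178 in HCs and 532.75 in ENSCs, and had 31.75 and 65.25 in the vestibular populations (8.16-fold). *Itga8*, the integrin alpha 8 subunit, was uneven in the other direction, with 4428 in cochlear HCs and 23927 in cochlear ENSCs, against 1180.75 and 476.25 (3.75-fold). The netrin receptor gene *Unc5b* was close to the threshold, with 333.25 and 240 in the cochlear and 28.25 and 75.25 in the vestibular libraries (3.19-fold, or 2.73 with a pseudocount of 20 and 5.81 after correction for length and GC content).

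The other leading cochlear genes were *Moxd1*, *Mctp1*, *Ccdc8* and *Rpl13*. *Moxd1* (chr10:23943323-24022596), a copper monooxygenase gene, had nearly equal signals of 808.75 and 884.5 in cochlear HCs and ENSCs and lay in or near the tied range in the vestibular libraries, at 29.75 and 27.25 (at least 26.5-fold). *Mctp1*, which encodes a membrane protein with C2 domains, had 637.5 and 520 against 59.5 and 27.25 (8.74-fold), and *Ccdc8* had 463.75 and 545 against 66 and 63.25 (7.03-fold). *Rpl13*, a ribosomal protein gene, had 323.25 and 728.25 in the cochlear and 29.75 and 35 in the vestibular libraries (9.24-fold). It was the only cochlear member with an *Rpl* or *Rps* symbol, compared with 10 of the 99 vestibular members and 112 genes of the whole table. *Nr2f1*, *Moxd1* and *Ano1* were the most even of the 15 leading cochlear genes, with a ratio between the cochlear populations of 1.03, 1.09 and 1.12.

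**Figure D2:**
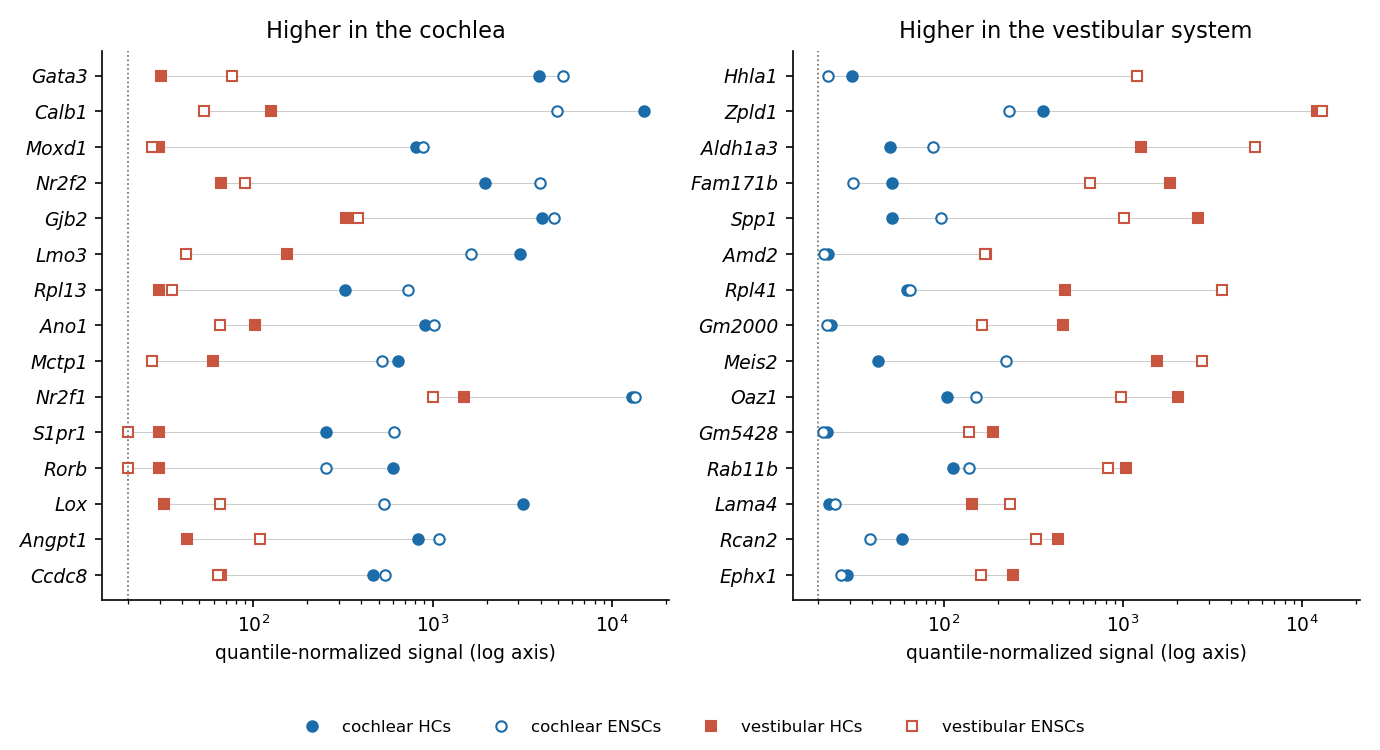
Quantile-normalized signal (log axis) of the 15 leading protein-coding genes per direction in cochlear HCs (filled circles), cochlear ENSCs (open circles), vestibular HCs (filled squares) and vestibular ENSCs (open squares), ordered by shared organ fold, with the floor of 20 as a dotted line. In every line both libraries of the higher organ lie to the right of both libraries of the other, from 51.9-fold for *Gata3* and 38.8-fold for *Hhla1* downwards.

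Some cochlear members outside the naming rule were chosen for description after their values were seen, because their products are well known. *Gucy1a3* and *Gucy1a2*, which encode alpha subunits of soluble guanylate cyclase, the receptor for nitric oxide, were both members. *Gucy1a3* had 580.75 and 1238.25 in cochlear HCs and ENSCs against 87.5 and 34.5 (6.64-fold), and *Gucy1a2* had 225 and 292.5 against 28.25 and 48.75 (4.62-fold). *Thrb*, a thyroid hormone receptor gene that is needed for hearing, had 1359.25 and 3439.25 in the cochlear and 332 and 159 in the vestibular libraries (4.09-fold). *Ntf3*, which encodes the neurotrophin that supports cochlear neurons, had 152.5 and 100 against 25.5 and 20 (at least 3.28-fold). The POU factor gene *Pou3f3* was even in the cochlea, with 540.5 and 520.75, and had 108.5 and 62.75 in the vestibular system (4.80-fold). *Hmga2*, a chromatin protein gene, had 338.25 and 504 against 67.5 and 40.75 (5.01-fold). *Emx2os*, the antisense transcript at *Emx2*, had 141.5 and 143.25 against 33.75 and 23.75 (4.19-fold). *Emx2* itself, a homeobox gene on the otic factor list, was at 1630.25 and 815.75 in cochlear HCs and ENSCs and 509 and 116 in the vestibular ones, and its shared organ fold of 1.60 did not reach the threshold. The strand setting of the counting is not known, so reads of a gene and its antisense partner may not be separated.

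In the vestibular direction the largest fold belonged to *Hhla1* (ENSMUSG00000072511, chr15:65754005-65808366). Its signal was 1192.5 in vestibular HCs and 1193.75 in vestibular ENSCs, and 30.75 and 22.5 in cochlear HCs and ENSCs. The vestibular signals were nearly identical and exceeded the cochlear ones 38.8-fold. *Zpld1* (chr16:55225288-55298099), which encodes a zona pellucida domain protein of the cupula above the canal cristae, had high signals in both populations, with 12099.25 in vestibular HCs and 12911.5 in vestibular ENSCs. It was not absent from the cochlea, with 360 and 232 (33.6-fold). *Fam171b* had 1820.5 and 652.75 in the vestibular and 51.5 and 31.25 in the cochlear libraries (12.7-fold). *Spp1*, the gene for the secreted phosphoprotein osteopontin, had 2615.25 and 1010.75 in vestibular HCs and ENSCs, against 51.5 and 96.5 in the cochlear populations (10.5-fold).

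Retinoic acid is a vitamin A derivative that regulates transcription through nuclear receptors. Of the 16 retinoic acid pathway genes analysed, 2 were members (12.5%, compared with 1.47% of all genes), both vestibular. *Aldh1a3* (chr7:73535778-73572403), a retinaldehyde dehydrogenase that makes retinoic acid, had 1266.75 and 5457 in vestibular HCs and ENSCs, and 50.25 and 87.5 in the cochlear ones (14.5-fold). *Rarb*, a retinoic acid receptor gene, had 330.75 and 100.75 in the vestibular libraries and was at 23 and 24 in the cochlear ones (at least 4.15-fold). With a floor of 50 its fold was 2.015 and with a pseudocount of 20 it was 2.74, which left *Aldh1a3* as the member of the list. With the floor of 50 the share of the list was 6.25%, compared with 0.804% of all genes. Of the related dehydrogenase genes, *Aldh1a1* had 19506.5 in vestibular and 551 in cochlear ENSCs, but 172.5 and 144.25 in vestibular and cochlear HCs. *Aldh1a2* had 1538 in vestibular and 110.25 in cochlear ENSCs, and 29.75 and 28.5 in the HCs. *Dhrs3*, which reduces retinaldehyde, and *Rdh10*, which produces it, were higher in both vestibular populations without reaching the threshold. Their shared folds were 2.38 and 1.95. The median over the 16 genes of the mean log2 ratio of cochlear to vestibular signal was -0.81, compared with 0.01 over all genes, and the mean was below 0 for 12 of them.

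Among the otic patterning factors the vestibular members were *Meis2*, *Dlx5* and *Dlx1*. *Meis2* (chr2:115688800-115891575), a TALE-class homeobox gene, had 1549.5 and 2747.5 in vestibular HCs and ENSCs, against 43.25 and 223 in the cochlear populations (6.95-fold). *Dlx5*, a distal-less homeobox gene needed for vestibular development, had 128.25 and 223.5 in the vestibular libraries and lay in the tied range of the cochlear ones, at 23 and 21.75 (at least 5.29-fold). *Dlx1* had 351.75 and 86.25 against 23 and 22 (at least 3.56-fold). With a floor of 50 only *Meis2* of these stayed a member, at 2.565 for *Dlx5* and 1.725 for *Dlx1*, and *Dlx1* was also under 3 after correction for length and GC content (2.585). The related genes *Dlx6* and *Dlx2* were higher in both vestibular populations by less, with shared folds of 1.93 and 1.10, and so were *Meis1* (2.49) and *Tbx2* (1.51). *Tbx3* had 266.75 and 3319.75 in the vestibular libraries and 37 and 261.5 in the cochlear ones, a shared fold of 1.02 because cochlear ENSCs nearly reached vestibular HCs.

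Other vestibular genes of the named set included *Otop1*, the gene for otopetrin 1, a proton channel needed to form otoconia, with 242 and 121.25 in vestibular HCs and ENSCs and 22.5 and 21.5 in the cochlear ones (at least 5-fold). *Lama4*, a laminin chain gene, had 143.25 and 233.5 against 23 and 24.75 (5.79-fold). With a floor of 50 neither was a member, at 2.425 for *Otop1* and 2.865 for *Lama4*. *Rcan2*, a regulator of calcineurin, had 436 and 329.25 against 58.75 and 39 (5.60-fold). *Ephx1*, the microsomal epoxide hydrolase gene, had 242.25 and 160.5 against 29 and 26.75 (5.53-fold). *Sema3e*, an axon guidance ligand gene, was at the edge of the threshold, with 1562.5 and 3505.75 in the vestibular and 515.25 and 103.75 in the cochlear libraries (3.03-fold, or 2.96 with a pseudocount of 20). Single-copy members described after their values were seen follow. *Aqp4*, a water channel gene, had 151.75 and 151.5 against 22.25 and 36.25 (4.18-fold). *Mstn*, the gene of the growth factor myostatin, had 142.75 and 114.25 against 21.75 and 25.5 (4.48-fold). With a floor of 50 *Mstn* was no member. *Lrrn1*, which encodes a membrane protein with leucine-rich repeats, was abundant, with 3485.25 and 4963 in the vestibular and 733.25 and 386.75 in the cochlear libraries (4.75-fold). *Socs3*, an inhibitor of cytokine signalling, had 365.75 and 732 against 24 and 109.25 (3.35-fold).

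The otic patterning list held 49 analysed transcription factors, of which 5 were cochlear and 3 vestibular members (16.3%, compared with 1.47% of all genes). With a floor of 50, 4 cochlear and 1 vestibular member were left (10.2%, compared with 0.804% of all genes). The list was chosen with earlier results of these data known, so this share is a description. Most factors of the list were not organ genes in both populations. *Eya1*, *Sox2*, *Sox9* and *Prox1* had shared folds under 1.5 in either direction. *Insm1*, with 1378.75 in cochlear against 29.75 in vestibular HCs, was near the floor in both ENSC libraries, at 22.75 and 20. *Irx5* and *Isl1* passed 3-fold in the cochlear direction in ENSCs only, with 1501.75 and 64.25 for *Irx5* and 4976.25 and 339 for *Isl1* in cochlear and vestibular ENSCs. *Gata2*, the relative of *Gata3*, was highest in vestibular ENSCs (3399.75), followed by cochlear ENSCs (1428.75), and lower in HCs of both organs (98.25 cochlear, 74.75 vestibular).

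**Figure D3:**
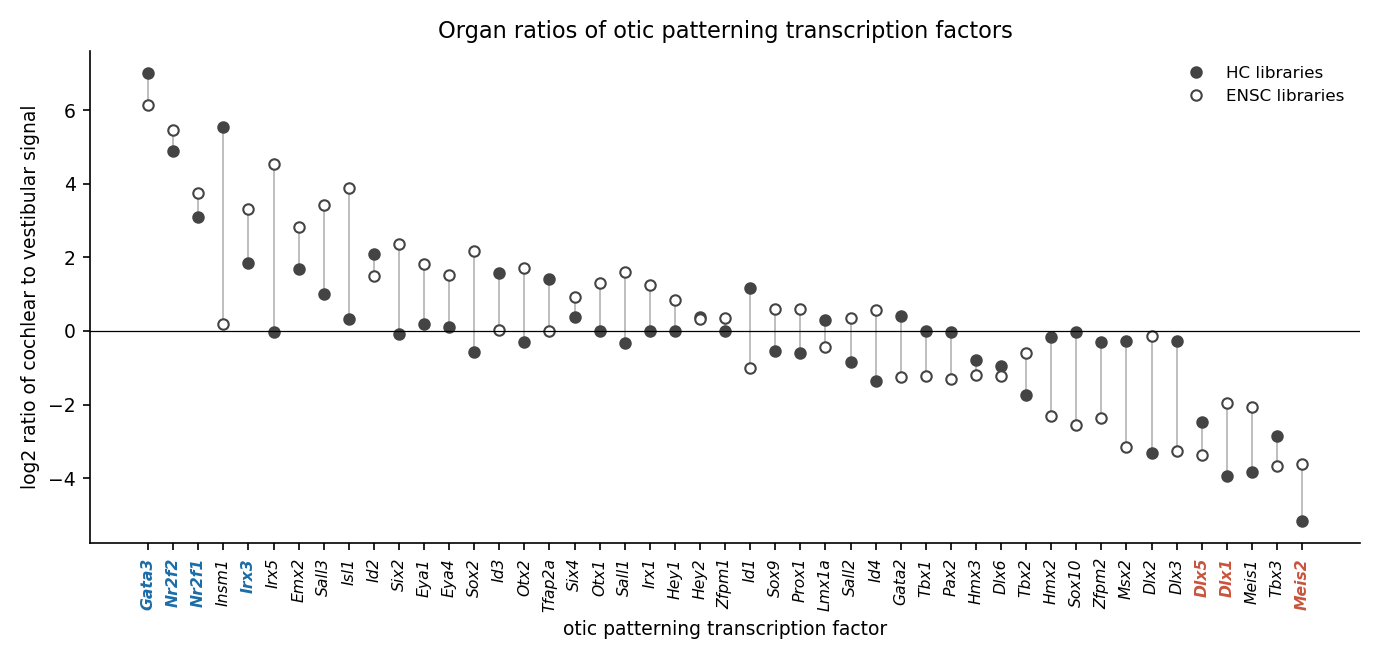
Log2 ratio of cochlear to vestibular signal for 47 of the 49 otic patterning transcription factors in HCs (filled) and ENSCs (open), ordered by their mean, with 4 cochlear members named in blue and the 3 vestibular members in red. *Gata3* and *Nr2f2* lie far above 0 and *Meis2* far below 0 in both populations, whereas the points of *Insm1*, *Irx5* and *Isl1* are far apart.

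Across all 12 pathway lists, 356 genes were analysed, and 11 were cochlear and 8 vestibular members (5.34%, compared with 1.47% of all genes). With a floor of 50 these numbers were 9 and 3 (3.37%, compared with 0.804% of all genes). Outside the otic factors and the retinoic acid pathway, each list held 2 members at most. The Wnt list had *Lgr5* among 41 genes, the FGF list *Fgfr3* among 25, the Notch list *Jag1* among 21 and the calcium-binding list *Calb1* among 19. The list of otoconial and endolymph genes had *Otop1* among 22, the list of collagens, laminins and integrins had *Itga8* and *Lama4* among 48, and the axon guidance list had *Unc5b* and *Sema3e* among 57. At the 1.47% of all genes, a list of 19 to 57 genes would hold about 1 member or none, so these counts are near the background. The same holds for the 35 BMP and TGF-beta genes, 9 hedgehog genes and 16 tectorial membrane and proteoglycan genes, none of which was a member. *Epyc*, a small proteoglycan gene, had 62028.5 in cochlear and 1119.25 in vestibular ENSCs, and 763.75 and 210 in the HCs. It was higher in the cochlea in each population, but cochlear HCs lay below vestibular ENSCs, so it was no member. In the other direction, *Oc90*, the main otoconial protein gene, had 37323.75 in vestibular and 5341.75 in cochlear ENSCs, and 644.25 and 463.25 in the HCs.

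No HC marker was a member, and *Gata3* was the only one of 10 supporting cell markers. None of the analysed genes of the marker lists for other cell types was a member. Outside these lists, *Clec14a*, a gene known from endothelial cells and named after its values were seen, was a cochlear member, with 173.5 and 222.25 in cochlear HCs and ENSCs against 27.5 and 20 (at least 5.69-fold), as was *S1pr1*, which endothelial cells also express. For mesenchyme and otic capsule, 11 of 17 markers were analysed and summed to 2576.5 and 26075.75 in cochlear HCs and ENSCs and to 870.5 and 25166.5 in the vestibular ones. For the stria vascularis, dark cells and Reissner's membrane, 9 of 10 markers summed to 5668.25, 16442.5, 6147 and 14944.75 in cochlear HCs, cochlear ENSCs, vestibular HCs and vestibular ENSCs. In the same order, the 8 of 15 neuronal markers summed to 9692.75, 5467.5, 10411 and 554.5, and the 7 of 10 glial markers to 1048.5, 2961.5, 864.5 and 4411.25. The 4 of 11 endothelial and pericyte markers summed to 91.5, 400.25, 108 and 3409, most of it from *Kdr* and *Anpep* in vestibular ENSCs, with 1461.75 and 1833.75. The 3 of 8 melanocyte markers stayed between 398.75 and 693.25 in sum, and *Cd68*, the only blood cell or macrophage marker of 14 that was analysed, was at 20 in all libraries but vestibular ENSCs (24.75). Several markers, such as *Isl1* and *Col2a1*, are also expressed by otic epithelium. The part of other cell types in the organ genes was not tested. All 5 sex-linked genes, *Xist* and 4 genes of the Y chromosome, were above the floor in every library and none was a member.

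The balance of the populations within the higher organ was also described. The larger of the cochlear signals exceeded the smaller by a median of 1.32, and 81 of 89 genes were within 3-fold. For vestibular members the median was 1.93, and 69 of 99 were within 3-fold. Without the genes found to have copies elsewhere in the genome, the medians were 1.30 for 87 cochlear and 1.63 for 51 vestibular members (*Rpl41*, which was not searched, included), of which 80 and 39 were within 3-fold. The most uneven were *Dbc1* among cochlear members, with 91 in HCs and 643.75 in ENSCs (7.07), and *Tll1*, a metalloprotease gene, among vestibular ones, with 2787.25 in HCs and 221.75 in ENSCs (12.6). ENSCs were the higher population for 54 cochlear and 60 vestibular members, HCs for 34 and 39, and 1 cochlear gene was equal. The lower population had at least 14.1% of the signal of the higher one for every cochlear member and at least 7.96% for every vestibular member. For comparison, all 10 HC markers had ENSC signals of 2.07% to 25.2% of the HC signal in the cochlea and of 0.532% to 18.6% in the vestibular system, so the lowest members lay within the range of the markers. The HC markers with a signal of at least 500 in HCs reached at most 5.36% in the cochlea (6 genes) and 5.86% in the vestibular system (7 genes). HC markers are a comparison for members higher in HCs. Supporting cell markers, the comparison for members higher in ENSCs, summed to 16168.25 in HCs and 98992.5 in ENSCs of the cochlea. In the vestibular system they summed to 13851.25 and 23518.5.

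**Figure D4:**
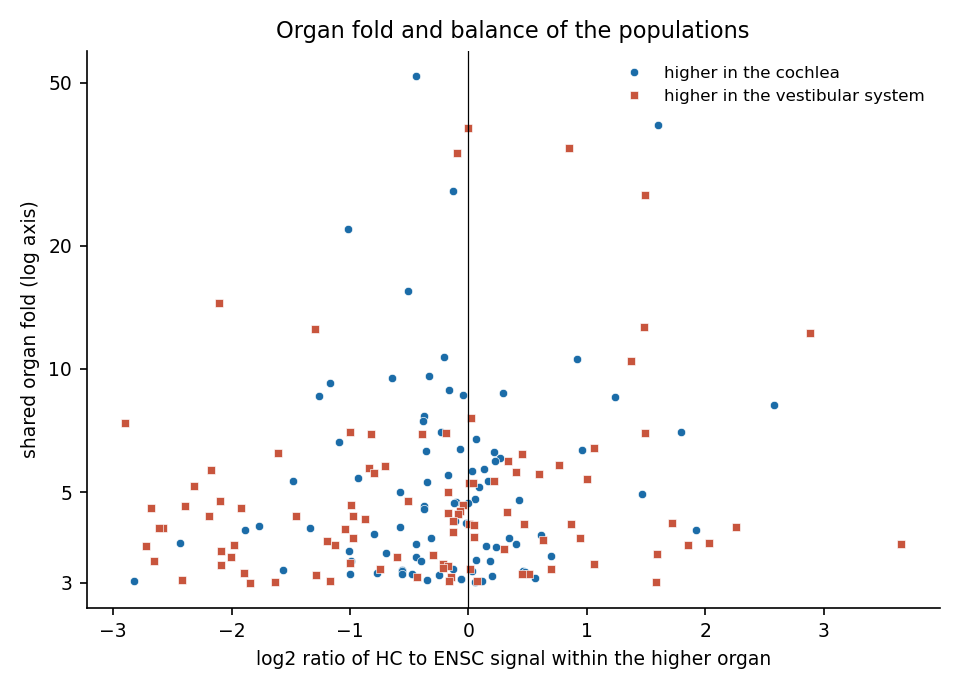
Shared organ fold (log axis) of the 188 members against the log2 ratio of HC to ENSC signal within the higher organ, with cochlear members as blue circles and vestibular members as red squares. Cochlear points gather near 0, where both populations have equal signals (median ratio of larger to smaller signal 1.32), and vestibular points spread farther to both sides (1.93, or 1.63 without genes found to have copies elsewhere).

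The annotation of the members differed between the organs. Of the 89 cochlear members 72 were protein-coding and 11 pseudogenes (12.4%). Of the 99 vestibular members 63 were protein-coding and 33 pseudogenes (33.3%), compared with 3.79% of all genes of the table. A pseudogene can be a near copy of its parent gene, and a 50-base read can match both. To describe this, up to 40 stretches of 50 bases per gene were searched for elsewhere in the genome. At least 20% of these stretches were found elsewhere for 48 vestibular members (48.5%), for 2 cochlear members (2.25%) and for 1057 genes of the table (8.25%). Genes with such copies are uncertain as organ genes, since their counts depend on how the alignment placed shared reads, which the sources used here do not state. Among genes with copies 4.54% were vestibular members, and among all others 0.434%. Without them 87 cochlear and 51 vestibular members were left. The copied vestibular members were short, with a median exonic length of 682 bases against 4571 bases for the others.

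**Figure D5:**
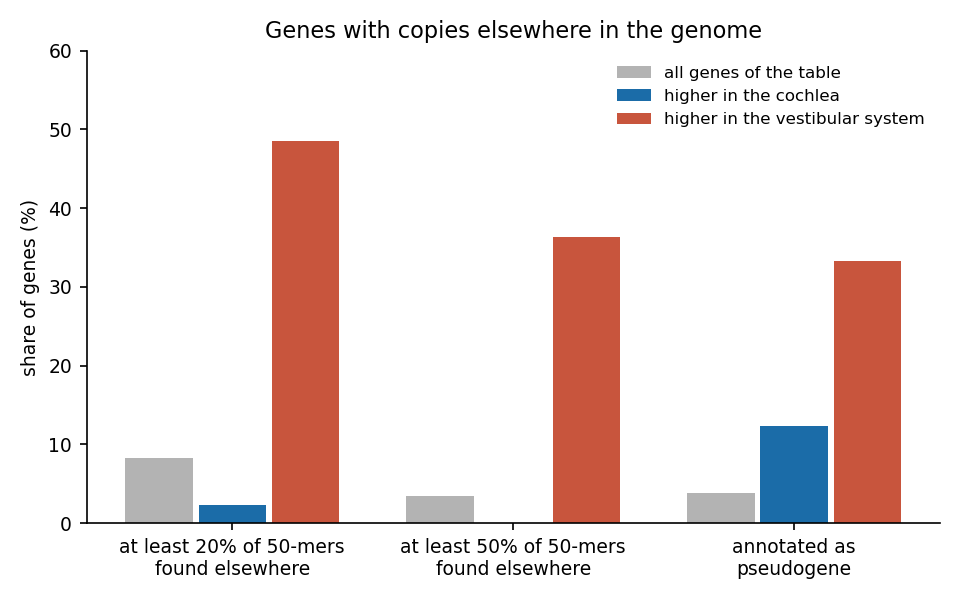
Share of genes (bars from 0, in percent) with at least 20% or at least 50% of their 50-base stretches found elsewhere in the genome, and share annotated as pseudogenes, for all genes of the table (grey), cochlear members (blue) and vestibular members (red). The red bars stand at 48.5%, 36.4% and 33.3%, above the grey ones at 8.25%, 3.43% and 3.79%.

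The leading copied genes show how far a copy and its parent can differ. *Gm7816* (chr5:40189453-40190646), a pseudogene, had 1521.25 and 842.5 in vestibular HCs and ENSCs against 24.25 and 22.5 in the cochlear libraries (at least 34.7-fold). It shares 21 stretches with *Dnaja1*, a heat shock cochaperone gene on chromosome 4, whose signals were 3166.75 and 2247.75 in cochlear HCs and ENSCs and 4342 and 1966.5 in the vestibular ones. *Gm15453* had 2127 and 757 in the vestibular and 28.5 and 28.25 in the cochlear libraries (26.6-fold, or 8.72 after correction for length and GC content), and *Rbm3*, with which it shares 20 stretches, had 1354.75 and 270 against 1127.5 and 780.25. *Gm5844* had 2190.5 and 296.5 against 24.25 and 22.75 (at least 12.2-fold), and the chaperone gene *Hsp90aa1*, which shares 20 stretches with it, had 2744.75 and 1568.75 against 3155.25 and 883.25. None of these 3 parent genes was an organ gene. *Gm15920* had 180.25 and 146.25 in the vestibular and 40.25 and 29.75 in the cochlear libraries (3.63-fold), whereas *Ndufa12*, a subunit gene of mitochondrial complex I with which it shares 18 stretches, was a cochlear member, with 191.25 and 182.5 against 27 and 20 (at least 5.98-fold). A gene and its near copy therefore stood in opposite lists. The stretches below each occur without a mismatch at exactly 2 places in mm9, once in the copy and once in the parent gene. They are shown because a read of this length taken from one cannot by itself be assigned to either gene. The study's methods name paired-end sequencing, and the use of the mate in mapping is not given in the sources used here.
Gm7816 (chr5:40190274-40190323) and Dnaja1 (chr4:40678780-40678829): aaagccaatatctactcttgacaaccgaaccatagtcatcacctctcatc
Gm5844 (chr3:17909025-17909074) and Hsp90aa1 (chr12:111933516-111933565): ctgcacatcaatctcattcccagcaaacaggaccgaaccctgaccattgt
Gm15920 (chr5:130664265-130664314) and Ndufa12 (chr10:93661826-93661875): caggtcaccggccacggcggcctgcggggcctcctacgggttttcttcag

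The Gm sequences are on the plus strand, as are the matches in *Dnaja1* and *Ndufa12*, and that in *Hsp90aa1* is on the minus strand. Of the 48 copied vestibular members, 41 shared stretches with a named protein-coding gene of the table. These partners were higher in the vestibular system in both populations for 13 members, higher in the cochlea in both for 9, and without a common direction for 19. Partners with their own vestibular membership included *Oaz1*, an inhibitor of polyamine synthesis, with 2028.75 and 971.25 against 104 and 151.5 (6.41-fold, or 3.52 after correction for length and GC content), and its copy *Oaz1-ps* had 155.75 and 700.75 against 26 and 27.5 (5.66-fold). Copies were also found for 82.5% of the *Oaz1* stretches, and for 87.5% of those of *Amd2*, an S-adenosylmethionine decarboxylase gene with 173.25 and 170.5 against 22.5 and 21.5 (at least 7.03-fold). *Gm2000* (82.5%), *Gm5428* (72.5%) and *Rab11b* (45%) were further leading vestibular genes of this kind, with folds of at least 6.74, at least 5.70 and 5.96. After that correction *Gm2000* fell to 2.01 and *Gm5428* to 3.23, and with a floor of 50 *Gm5428* fell to 2.765. *Rpl41*, a ribosomal protein gene with 476.75 and 3549.25 against 62.5 and 64.75 (7.36-fold), had no position in the annotation used and was not searched. The pseudogene *Gm13654*, with 718.5 and 1765.5 against 24.25 and 57.25 (12.6-fold), had all its stretches elsewhere.

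Among genes of other biotypes, the cochlear list held the long non-coding RNAs *Gm8327* and *A830082K12Rik*, both next to *Nr2f1*. *Gm8327* had 460.25 and 656.25 in cochlear HCs and ENSCs against 29.75 and 27.25 (at least 15.1-fold), and *A830082K12Rik* had 620.75 and 782.25 against 64.5 and 55 (9.62-fold). On chromosome 13 *A830082K12Rik* overlaps *Nr2f1* by 1741 bases and *Gm8327* by 20 bases, both on the strand opposite to *Nr2f1*. *Gm8327* lies entirely within *A830082K12Rik*, so these 3 genes are not independent observations. The pseudogene *Gm12020* had 276 and 431.5 against 29 and 20 (at least 9.05-fold). Other pairs of cochlear members within 100 kb were *Itpripl2* and *Coq7*, 23175 bases apart on chromosome 7, and *Trpc5* and *Zcchc16*, 726 bases apart on chromosome X. No such pair was found among the vestibular members.

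Promoter sequence was compared as a description of the members. RefSeq windows of 250 bases upstream of transcription starts (GRCm38.p6) were matched for 52 cochlear members (62 windows) and 44 vestibular members (57 windows), and for 9340 genes of the table (12103 windows). On either strand, the letters AGATAA, to which factors such as *Gata3* bind, were found in 4.84% of cochlear and 10.5% of vestibular windows, compared with 5.63% of all windows. The homeodomain core TAATTA was found in 1.61% and 3.51%, compared with 2.54%, the E-box CAGCTG in 17.7% and 12.3%, compared with 11.9%, and the TCF site TTCAAAG in 3.23% and 1.75%, compared with 2.98%. These shares rest on 1 to 11 windows with a match. Windows of 1 gene were counted separately and can overlap, so a site can be counted repeatedly, as for the E-box of *Syt6*. The number of CpG dinucleotides had a median of 12.5 in cochlear, 9 in vestibular and 16 in all windows. In the windows below the CpG dinucleotides are in capitals. The windows belong to single-copy protein-coding members with 1 RefSeq start. In each direction the member with the largest fold was taken whose window was found once in mm9 and overlapped no annotated exon there. The windows are shown as examples and hold 8 CpG dinucleotides for *Moxd1* and 3 for *Ephx1*. This number was not used to choose them.
Moxd1 (chr10:23943073-23943322, plus strand): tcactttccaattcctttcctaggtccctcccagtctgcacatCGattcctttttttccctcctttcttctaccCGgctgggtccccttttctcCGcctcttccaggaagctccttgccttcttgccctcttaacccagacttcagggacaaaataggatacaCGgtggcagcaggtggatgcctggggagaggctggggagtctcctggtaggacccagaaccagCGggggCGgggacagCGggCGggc
Ephx1 (chr1:182947701-182947950, minus strand): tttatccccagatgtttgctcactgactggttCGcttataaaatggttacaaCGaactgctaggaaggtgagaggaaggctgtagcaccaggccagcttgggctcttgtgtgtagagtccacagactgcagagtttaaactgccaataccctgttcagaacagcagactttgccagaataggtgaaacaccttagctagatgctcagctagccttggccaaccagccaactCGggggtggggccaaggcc

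The threshold cut through a continuum. The members just inside it were *2310003F16Rik* (3.02) and *Dbc1* (3.03, but at least 2.98 with tied signals raised) in the cochlear direction and *Fscn1*, the gene of an actin-bundling protein (3.01), in the vestibular direction. Just outside were *Fabp7*, a fatty acid binding protein gene with 1965 and 763.75 in cochlear and 254.75 and 98 in vestibular HCs and ENSCs (2.998), and *Uchl1*, a ubiquitin hydrolase gene (2.98). On the vestibular side these were *Zbtb7c* (2.94) and *Ost4* (2.89). The median fold was 4.54 for cochlear and 4.20 for vestibular members, 37 and 33 genes reached 5-fold, and 7 and 9 reached 10-fold. The smaller signal of the higher organ was under 100 for 22 cochlear and 33 vestibular members and at least 1000 for 15 and 7.

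Base composition moved with the organ ratio in ENSCs. Across 10483 genes above the floor in both ENSC libraries, the log2 ratio of cochlear to vestibular signal was lower for genes of higher GC content (rho = -0.453 by Spearman's method), and across 10861 genes in the HC libraries rho was 0.0215. Genes within a library share its amplification and sequencing, and these coefficients are descriptions. The median GC content was 46.2% for cochlear members, 48.7% for vestibular members and 48.8% for all genes of the table. With all cochlear to vestibular ratios adjusted for exonic length and GC content by local regression, 73 of the 89 cochlear and 73 of the 99 vestibular members stayed at 3-fold or more. The part of base composition in the other members was not tested.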

How the data were processed

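RNA-seq was performed on sorted cochlear and vestibular HCs and ENSCs, 1 deposited column per population. The design text speaks of triplicates, and how these entered the columns is not given in the sources used here. The ENSC samples were matched to the non-HC column of their organ. The labels name RNeasy Plus Micro extraction and NuGEN Ovation amplification, whereas the study's methods name Direct-zol for RNA-seq.

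The deposited values are a quantile-normalized signal per gene, made from read counts. Per the study's methods and labels, reads trimmed to 50 nt were mapped to mm9 by TopHat and summed per ENSEMBL gene by HTSeq, after which the authors kept genes with 20 or more reads, quantile-normalized the columns and applied the floor of 20. Tool versions, the strand setting and the release of the gene annotation are not given in the sources used here. Sorted values were identical in all columns, each of which summed to 7830343, so depth is unknown, no counting interval can be given, and overall shifts between libraries cannot be seen. All values were multiples of 0.25. There were 0 columns of other samples.

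Ratios were computed without a pseudocount, and with 1 column per group no test was made. Positions and exonic sequence came from GENCODE on NCBIM37 (mm9), in which 12799 of 12814 gene identifiers were found, and promoter windows came from RefSeq (GRCm38.p6). Copies elsewhere were sought by exact match of up to 40 stretches of 50 bases per gene. Python 3.11.15 was used with numpy 2.4.6, pandas 2.3.3, statsmodels 0.14.6 and numba 0.67.0.

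The members and lists were chosen with earlier results of these data known. Named genes were, per direction, the 15 protein-coding genes with the largest fold (tied signals raised) and a smaller signal of at least 100 in the higher organ, all listed genes past 3-fold, the 2 genes on either side of the threshold, the 3 leading genes of other biotypes, neighbouring members, and the 3 most even of the 15. Other members were chosen after their values were seen. Some genes of these lists are counted but not reported here by name. Alternatives were thresholds of 2 and 5, floors of 50 and 100, pseudocounts of 20 and 100, filters on signal, biotype and balance, centring, raised tied signals, correction for length and GC content by local regression (0.3 of the genes, 2 robust iterations), and other forms of the ratio. Leaving out copied genes, leaving out each library and a ratio strictly above 3 were added after the data were seen.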

Additional observations from a re-analysis of the deposited data

Results flagged for a closer look

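In 51 genes the organ difference ran in opposite directions in the 2 populations, with at least a 3-fold ratio each way (0.398% of the genes), compared with 303 genes (2.36%) that passed 3-fold in the same direction in both. Of these, 11 were higher in cochlear HCs and vestibular ENSCs, and 40 were higher in vestibular HCs and cochlear ENSCs. The difference between the populations was not tested, since each had 1 deposited column per organ. The examples were chosen after their values were seen. *Slc14a1*, a urea transporter gene, had 684 in cochlear and 31.5 in vestibular HCs, but 22.5 in cochlear and 884.75 in vestibular ENSCs. *Vcan*, which encodes the matrix proteoglycan versican, went from 1747 in cochlear to 284 in vestibular HCs, against 147 and 3198 for the ENSCs of these organs. In the other direction *Thsd7a* went from 24.25 in cochlear to 470.5 in vestibular HCs, against 1143.25 and 94.75 for the ENSCs, and *Ly75* from 25 to 307 in HCs, against 196.5 and 20 for the ENSCs.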

How the results depend on the processing

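The number of organ genes depended on the threshold, the treatment of low signals and the form of the ratio. Against 89 cochlear and 99 vestibular genes, a threshold of 2 gave 212 and 209 and one of 5 gave 37 and 33. Floors of 50 and 100 gave 52 and 37 cochlear and 51 and 29 vestibular genes, and pseudocounts of 20 and 100 gave 54 and 26 cochlear and 49 and 18 vestibular genes. Requiring only both matched ratios to reach 3 gave 146 and 157, and the ratio of geometric means 387 and 449. Protein-coding genes alone gave 63 vestibular genes, and leaving out genes with copies gave 51. Without 1 library the counts ranged from 204 (without vestibular ENSCs) to 525 (without vestibular HCs) for the cochlea and from 160 (without cochlear HCs) to 828 (without vestibular HCs) for the vestibular system, because a library left out removes comparisons from the rule. Of the 8 listed vestibular genes, 3 were left with a floor of 50 and 3 with a floor of 100. The other alternatives stayed within 1.5 times the counts. Among 52 named genes none changed direction, and 33 stayed at 3-fold or more with a floor of 100 and 30 with a pseudocount of 100. Besides the genes lost with a floor of 50, *S1pr1*, *Rorb*, *Unc5b*, *Gm12020*, *Amd2*, *Gm2000* and *Ephx1* were lost under both, and *Jag1*, *Rcan2* and *Sema3e* with the pseudocount of 100. No paired test was made, since each group had 1 deposited column, and no result came from a test. The matched ratios, HC over HC and ENSC over ENSC, are given as descriptions. Depth is unknown, and organ differences of genes near the floor were not detectable.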
